A study of Mus musculus with 32 samples.

Results

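The genes described here are 9 genes that mark B lymphocytes, namely *Cd79a*, *Cd79b*, *Ms4a1*, *Cd22*, *Cd37*, *Blk*, *Fcer2a*, *Cr2* and *Pax5*, chosen by name and looked up by symbol among the 29511 genes of the count table. All 9 were in both deposited tables, and all 9 passed the filter on low counts that left 16029 genes for testing in lungs. The 32 RNA-seq libraries, 20 of lungs and 12 of primary tumors, came from FVB/N females. Mice were wildtype (WT) or carried a constitutive knockout (KO) of *Clic4*, a gene for a chloride intracellular channel protein, so the KO lacked the gene product in every host cell type rather than in B cells alone. The control WT lungs (4 mice) and control KO lungs (4 mice) came from mice without a tumor. Whether they were matched in age to the 14-day mice is not given in the sources used here. The 14-day WT lungs (6 mice) and 14-day KO lungs (6 mice) came from young adult mice that carried a 6DT1 tumor in a mammary fat pad. They were taken 14 days after implantation, at a premetastatic stage. 6DT1 is a mouse mammary tumor cell line that carries *Clic4* in both kinds of host. Tumors of WT hosts (6) and tumors of KO hosts (6) were used only to set the level of the same genes in another tissue.

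B cells recognize antigen through a surface immunoglobulin that signals through the paired chains CD79A and CD79B, and coreceptors on the same cell raise or lower that signal. They arise in the bone marrow under transcription factors that commit the lineage, recirculate through blood, spleen and lymph nodes, and are present in small numbers in healthy lung, in its vessels and its tissue. Mature B cells share a set of surface molecules that are lost when the cells become antibody-secreting plasma cells. In whole lung, fewer B cells and less RNA per B cell cannot be told apart.

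The 20 lungs held between 4567220 and 8318711 counts each, and the 12 tumors between 4446323 and 6518501. At this depth the 9 genes had between 4 and 229 counts per lung, with *Blk* the lowest. *Clic4*, the targeted gene, was lower in KO than in WT lungs, with a log2 fold change of -1.45 (SE 0.11) in controls and -1.49 (SE 0.09) at 14 days and adjusted p = 1.73e-07 and 2.06e-09 in edgeR's quasi-likelihood test, and every KO lung lay below every WT lung. Reads of the exons that the deletion leaves in place were still counted, between 210.4 and 286.8 CPM in the KO lungs.

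The sequences before the start sites of *Cd79a*, *Cr2* and *Pax5* are shown as a description, and no link between them and the RNA levels was tested. They are RefSeq windows of GRCm38.p6 and end before the transcribed part of the gene in RefSeq and in GENCODE M21, which shortened that of *Cd79a* to 134 bases. Such windows were at hand for 6 of the 9 genes. Capitals mark the E-box CACCTG or its other strand, CAGGTG, the sequence class bound by the B lineage factor TCF3. The first window is chr7:24897247-24897380 on the plus strand, the second chr1:195176720-195176969 on the minus strand and the third chr4:44710695-44710944 on the minus strand.
Cd79a: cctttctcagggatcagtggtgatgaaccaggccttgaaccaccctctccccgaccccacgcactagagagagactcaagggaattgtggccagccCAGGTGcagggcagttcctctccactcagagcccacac
Cr2: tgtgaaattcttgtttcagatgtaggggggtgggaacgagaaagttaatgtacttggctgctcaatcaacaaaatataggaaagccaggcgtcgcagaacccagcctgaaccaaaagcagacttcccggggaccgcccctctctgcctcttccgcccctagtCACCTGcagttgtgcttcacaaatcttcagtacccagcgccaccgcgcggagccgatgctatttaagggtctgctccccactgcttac
Pax5: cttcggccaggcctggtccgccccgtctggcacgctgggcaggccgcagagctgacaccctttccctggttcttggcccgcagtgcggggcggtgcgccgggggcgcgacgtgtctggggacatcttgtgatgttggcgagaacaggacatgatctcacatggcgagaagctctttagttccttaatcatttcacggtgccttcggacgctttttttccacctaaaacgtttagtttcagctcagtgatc
Over the whole 250 bases before the RefSeq start, of which only a part is printed for *Cd79a*, this E-box occurred in 5 of 8 windows of the listed genes, those of *Cd79a*, *Cd22*, *Cd37*, *Cr2* and *Fcer2a*, and in 17.2% of 32851 mouse windows of the same length. The letters CCCNNGGG, one form of the site of the B lineage factor EBF1, were found in the window of *Cd22* and in 11.8% of all windows. The Ets family letters AGGAAGT (other strand ACTTCCT) were found for *Cd37* and, beyond the printed bases, for *Cd79a*, and in 7.69% of all windows. TATAAA (other strand TTTATA) was found for *Fcer2a* and in 12.4% of all windows, and the octamer ATTTGCAT (other strand ATGCAAAT) in none of the 8 windows and in 1.60% of all windows. No letters of these 5 searches were in the *Pax5* window. These matches describe the letters of a window and do not show a bound site.

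*Cd79a* and *Cd79b* encode the signaling chains of the B cell receptor. *Cd79a* (ENSMUSG00000003379) lies on the plus strand of chromosome 7 of GRCm38, from 24897381 to 24902197, and *Cd79b* (ENSMUSG00000040592) on the minus strand of chromosome 11, from 106311341 to 106314762. In CPM, which are read counts scaled to library size with TMM factors, the control WT lungs had 17.1, 13.6, 16.2 and 12.6 CPM of *Cd79a*. The control KO lungs had 6.53, 9.74, 8.39 and 2.84 CPM. The 4 control KO lungs all lay below the 4 control WT lungs, and replicate 4 was the lowest of all 20 lungs. In 14-day WT lungs *Cd79a* ran from 4.33 to 13.5 CPM with a median of 7.28, and in 14-day KO lungs from 4.12 to 16.8 with a median of 10.4. Both 14-day groups overlapped with the controls of their genotype. *Cd79b* had 19.5, 12.9, 15.7 and 16.2 CPM in control WT lungs and 11.2, 13.1, 12.6 and 6.45 CPM in control KO lungs. These groups overlapped, and the 14-day lungs spread further still, from 6.23 to 16.1 CPM in WT and from 4.87 to 25.3 CPM in KO.

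*Blk* encodes a Src family kinase of B cells that acts downstream of the receptor (ENSMUSG00000014453, chromosome 14, minus strand, from 63372836 to 63417037). The control WT lungs had 6.75, 5.27, 6.79 and 5.51 CPM. In control KO lungs the values were 3.73, 3.12, 3.55 and 0.758 CPM. The 14-day WT lungs ran from 1.38 to 4.77 CPM with a median of 3.06. Every control WT lung therefore lay above every control KO lung and above every 14-day WT lung. The 14-day KO lungs had from 1.68 to 7.98 CPM with a median of 3.56, a range that took in every other lung except the control KO lung with 0.758 CPM and the 14-day WT lung with 1.38 CPM. *Blk* had the widest range of the 9 genes, 10.5-fold over the 20 lungs, and 4 counts in its lowest lung.

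*Pax5* encodes the transcription factor that fixes B cell identity. It lies on the minus strand of chromosome 4, the chromosome of *Clic4*, from 44524757 to 44710487 (ENSMUSG00000014030), and overlaps an antisense gene, *Gm12462*, and 2 other short gene models that are in the tables. The control WT lungs had 21.7, 16.4, 17.9 and 18.3 CPM, and the control KO lungs 8.95, 11.9, 12.9 and 3.22 CPM. These groups did not overlap. The 14-day WT lungs ran from 3.29 to 16.4 CPM (median 11.5) and the 14-day KO lungs from 4.30 to 23.9 CPM (median 11.4). The control WT lung with 16.4 CPM lay just below the highest 14-day WT lung.

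Among the surface molecules that modulate the receptor, *Cd22* encodes an inhibitory lectin that binds sialic acid (ENSMUSG00000030577, chromosome 7, minus strand, from 30865402 to 30880342) and overlaps an antisense gene, *Gm29439*. Its control WT lungs had 27.6, 9.09, 20.9 and 23.5 CPM, and its control KO lungs 17.5, 17.9, 20.7 and 10.4 CPM. Replicate 2 stood below the other control WT lungs and below every control KO lung, while the highest control KO lung lay just below the other 3 control WT lungs. *Cr2* encodes complement receptors that lower the threshold of B cells and are also made by follicular dendritic cells (ENSMUSG00000026616, chromosome 1, minus strand, from 195136811 to 195176716). It had 8.68 to 13.6 CPM in control WT, 5.88 to 10.5 in control KO, 2.94 to 13.0 in 14-day WT and 6.36 to 18.3 in 14-day KO lungs. All 4 ranges overlapped.

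*Ms4a1* encodes CD20 (ENSMUSG00000024673, chromosome 19, minus strand, from 11249675 to 11266241, with the antisense gene *4930526L06Rik*), *Cd37* encodes a tetraspanin of mature B cells and other leukocytes (ENSMUSG00000030798, chromosome 7, minus strand, from 45233632 to 45239115, overlapping *Tead2* on the other strand), and *Fcer2a* encodes the low-affinity receptor for IgE, CD23 (ENSMUSG00000005540, chromosome 8, minus strand, from 3681737 to 3694175). *Ms4a1* had 13.8 to 20.5 CPM in control WT, 7.02 to 17.9 in control KO, 6.23 to 17.8 in 14-day WT and 8.90 to 26.2 in 14-day KO lungs. *Cd37* had 14.2 to 21.7, 7.58 to 16.6, 11.1 to 18.2 and 7.86 to 26.7 CPM in the same order of groups. *Fcer2a* had 4.05 to 6.63, 2.65 to 4.68, 2.60 to 5.62 and 1.82 to 8.18 CPM. For each of these 3 genes the 4 groups overlapped, and the 14-day KO group had the widest range.

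**Figure D1:**
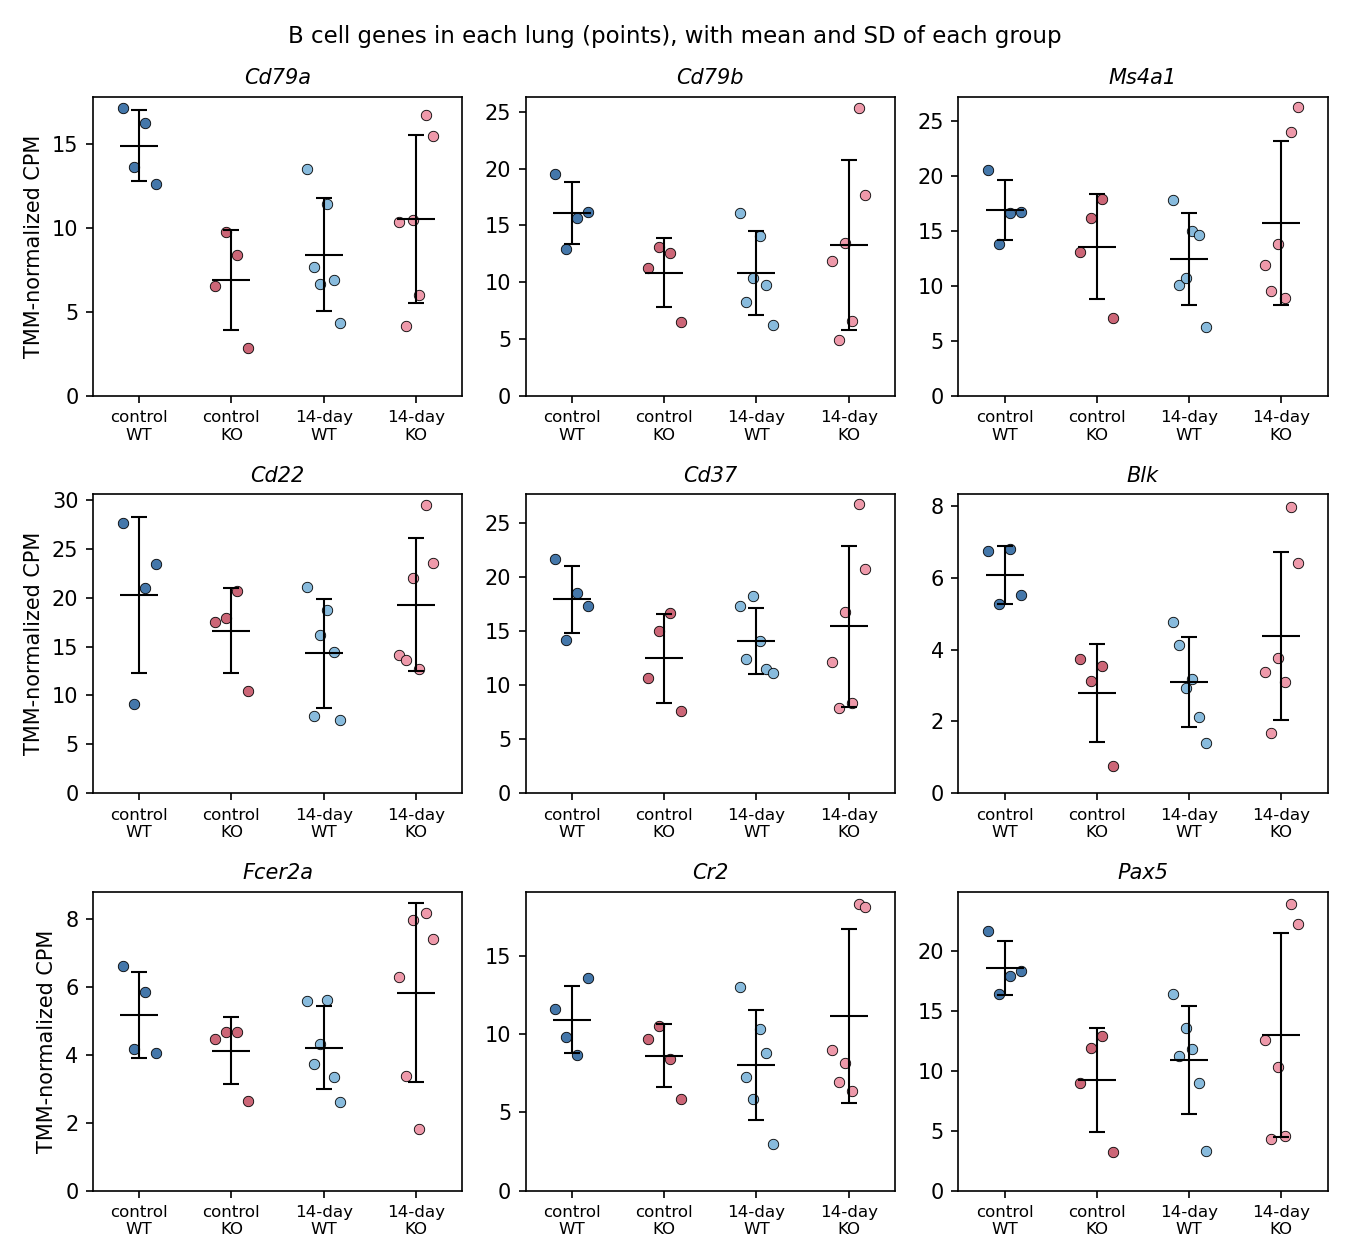
TMM-normalized CPM of the 9 B cell genes in each of 20 lungs (points), with the mean and SD of each group (bars), on axes that start at 0. The control WT lungs have the highest mean for 7 of the 9 genes, and the 14-day KO lungs spread from among the lowest to the highest values.

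The first question was whether lungs of tumor-bearing mice differed from control lungs of the same genotype. In WT mice, the 14-day lungs had lower fitted levels than control lungs for 9 of 9 genes, with a median log2 fold change of -0.51 against 0.00321 over all genes tested, of which 49.3% were lower. The largest differences were those of *Blk*, at -0.98 (SE 0.35, 95% confidence interval -1.71 to -0.25, adjusted p = 0.290 in edgeR), and *Cd79a*, at -0.83 (SE 0.32, -1.49 to -0.17, adjusted p = 0.322). *Pax5* differed by -0.77 (SE 0.39, adjusted p = 0.455), and the other 6 genes by -0.58 to -0.31. A gene was called if it differed by at least 1.5-fold with an FDR under 0.25. None of the 9 genes was called by edgeR (0 of 9), against 0.574% of all genes. DESeq2 gave an adjusted p to 3 of the 9, since it leaves out genes of low mean count, and called 0 of these 3. Without that step, an alternative chosen after the data were seen, DESeq2 gave all 9 an adjusted p, the lowest 0.261, and called 0. At an unadjusted p under 0.05 edgeR had *Blk* and *Cd79a*, 2 of the 9, against 11.8% of all genes. The groups did not overlap for 1 gene, *Blk*, as they did not for 2.98% of all genes. With only these 10 lungs in the fit, *Blk* and *Cd79a* passed the limits (adjusted p = 0.197 and 0.232 in edgeR), with 91 of 15579 genes called in all.

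In KO mice the fitted levels were higher in 14-day than in control lungs for 9 of 9 genes, with a median of 0.37 and a range from 0.21 (*Cd22* and *Ms4a1*) to 0.64 (*Blk*). Here 0 of 9 were called by edgeR, against 0.262% of all genes, and 0 of the 7 with an adjusted p by DESeq2. With an unadjusted p under 0.05 there were 0 in edgeR, against 8.64%, and the groups overlapped for all 9, while they did not for 2.18% of all genes. The lowest adjusted p was 0.665, for *Cd79a* (0.61, SE 0.35, interval -0.12 to 1.34). The difference rested in part on 3 lungs: the median was 0.18 without 14-day KO replicate 5, 0.20 without replicate 6 and 0.20 without control KO replicate 4, and without replicate 6 the difference for *Ms4a1* was -0.000591. With the replicate number as a block the median was 0.18, and 9 of 9 genes were still higher.

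The test of whether the tumor-associated difference itself depended on genotype is the interaction, the KO difference minus the WT difference. It was positive for 9 of 9 genes, with a median of 0.82 on the log2 scale, and led by *Blk* (1.62, SE 0.53, interval 0.53 to 2.71, adjusted p = 0.407 in edgeR), *Cd79a* (1.44, SE 0.48, 0.45 to 2.43, adjusted p = 0.418) and *Pax5* (1.25, SE 0.59, 0.03 to 2.47, adjusted p = 0.572). At an FDR of 0.25 alone, 0 of 9 genes were called by edgeR, against 0.0499% of all genes. DESeq2 gave none of the 9 an adjusted p, and without its filter on low means the lowest was 0.294, with 0 called. These 3 genes had an unadjusted p under 0.05 (0.00556, 0.00626 and 0.0446 in edgeR), against 8.53% of all genes. For the other 6 genes the interaction ran from 0.65 (*Cd37*) to 0.87 (*Cd79b*), each with an interval that took in 0. Averaged over genotypes, the 14-day lungs differed from controls by a median of -0.12, with 1 gene higher and 8 lower. With 1 lung left out this median ran from -0.23 to -0.05, with 1 to 3 genes higher, and it was -0.21 with the replicate block. Here 0 of 9 were called by edgeR or by DESeq2, against 0.574% of all genes by edgeR. At an unadjusted p under 0.05 there were 0 in edgeR, against 12% of all genes.

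The second question was whether KO and WT lungs differed. In control mice the KO lungs were lower for 9 of 9 genes, with a median of -0.53, and the order of the genes had *Cd79a* first (-1.11, SE 0.37, interval -1.87 to -0.35, adjusted p = 0.282 in edgeR), then *Blk* (-1.11, SE 0.40, -1.95 to -0.28, adjusted p = 0.314) and *Pax5* (-1.0, SE 0.45, -1.94 to -0.07, adjusted p = 0.403). In linear terms the fitted level in control KO lungs was 0.462 of that in WT for *Cd79a*, 0.463 for *Blk* and 0.499 for *Pax5*. Again 0 of 9 were called by edgeR, against 0.231% of all genes, and 0 of the 5 with an adjusted p by DESeq2. Without its filter on low means DESeq2 called *Cd79a* (-1.11, adjusted p = 0.223), with 53 genes called in all. In edgeR 3 genes had an unadjusted p under 0.05 (0.00602, 0.0113 and 0.0366 in edgeR), against 11.6%. The groups did not overlap for the same 3 genes, as they did not for 7.60% of all genes. With only these 8 lungs in the fit, *Cd79a*, *Pax5* and *Blk* passed the limits (adjusted p = 0.115, 0.137 and 0.162 in edgeR), and so did 246 of 15202 genes in all, against 37 of 16029 with all 20 lungs. For the other 6 genes the difference ran from -0.58 (*Cd79b*) to -0.30 (*Cd22*). Without control KO replicate 4, the lowest lung for 4 of the 9 genes, the median difference was -0.35 and 9 of 9 were still lower.

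At 14 days the KO lungs were higher than the WT lungs for 9 of 9 genes, by a median of 0.35, from 0.13 (*Cd37*) to 0.51 (*Blk*), and the groups overlapped for every one of the 9, while they did not for 0.549% of all genes. Every one of the 9 intervals took in 0, 0 of 9 were called by edgeR, against 0.212% of all genes, and 0 had an unadjusted p under 0.05 in edgeR, against 8.34%. DESeq2 gave none of the 9 an adjusted p, and without its filter on low means the lowest was 0.834. The median was 0.19 without 14-day KO replicate 6, 0.21 without 14-day WT replicate 6 and 0.20 without 14-day KO replicate 5, and without the last *Cd37* (-0.0881) and *Pax5* (-0.00742) were lower in KO. Over both tumor states the KO lungs were higher for 4 genes and lower for 5, with a median of -0.14. With 1 lung left out this median ran from -0.28 (without 14-day KO replicate 5) to -0.05 (without control KO replicate 4), and 8 genes were lower without 14-day KO replicate 5 or without 14-day WT replicate 6. Here 0 of 9 were called by edgeR and 0 of the 7 with an adjusted p by DESeq2, against 0.237% of all genes by edgeR. At an unadjusted p under 0.05 there were 0 in edgeR, against 11.6% of all genes. The 7 comparisons share their groups, so their directions are not independent. The control WT group, highest for 7 of 9 genes, enters both the WT tumor comparison and the control KO comparison.

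**Figure D2:**
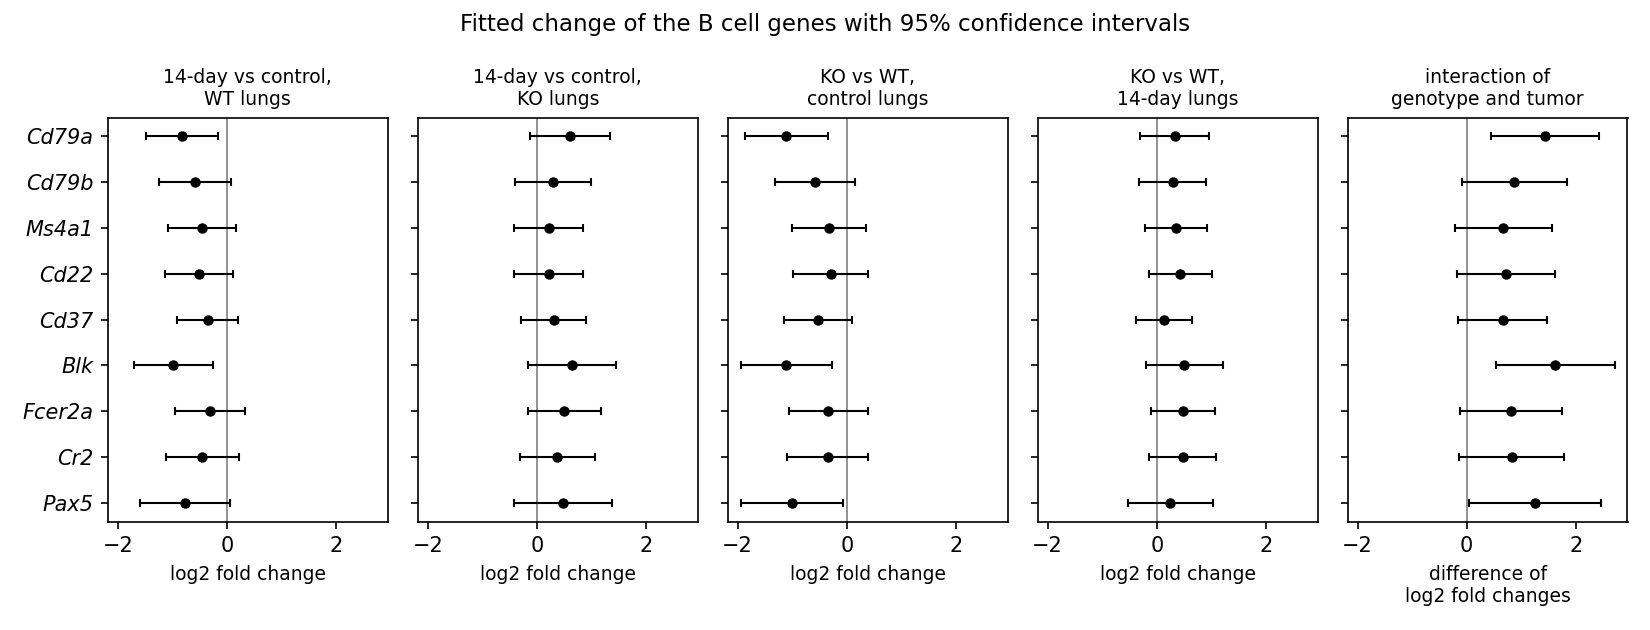
Fitted log2 fold changes of the 9 genes with 95% confidence intervals in 4 comparisons of 20 lungs, and the interaction, the 14-day minus control difference in KO minus that in WT (log2). All 9 points lie below 0 in the WT tumor comparison and in control KO against WT, and above 0 in the other 3 panels, while most intervals take in 0.

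The 9 genes moved together from lung to lung. Over the 20 lungs the pairwise correlations of log2 CPM ran from 0.63 to 0.93 with a median of 0.82 (36 pairs), and from 0.63 to 0.94 with a median of 0.83 after each group's mean was removed, so the shared movement was also present within groups. *Pax5* had the highest median correlation with the other genes (0.89) and *Cd22* the lowest (0.72). All values of a lung share its library and its scaling, and these correlations are descriptions. The sum of the 9 genes was lowest in 14-day WT replicate 6 (45.5 CPM) and control KO replicate 4 (46.8 CPM) and highest in 14-day KO replicate 5 (180.7 CPM). Within the 14-day KO group alone it ran from 56.3 and 58.3 CPM in replicates 2 and 4, through 91.6 and 106.7 CPM in replicates 1 and 3, to 180.7 and 157.9 CPM in replicates 5 and 6. Replicate 5 was the highest of all 20 lungs for 7 of the 9 genes. The control WT lungs had sums of 153.1, 99.3, 127.2 and 127.8 CPM.

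**Figure D3:**
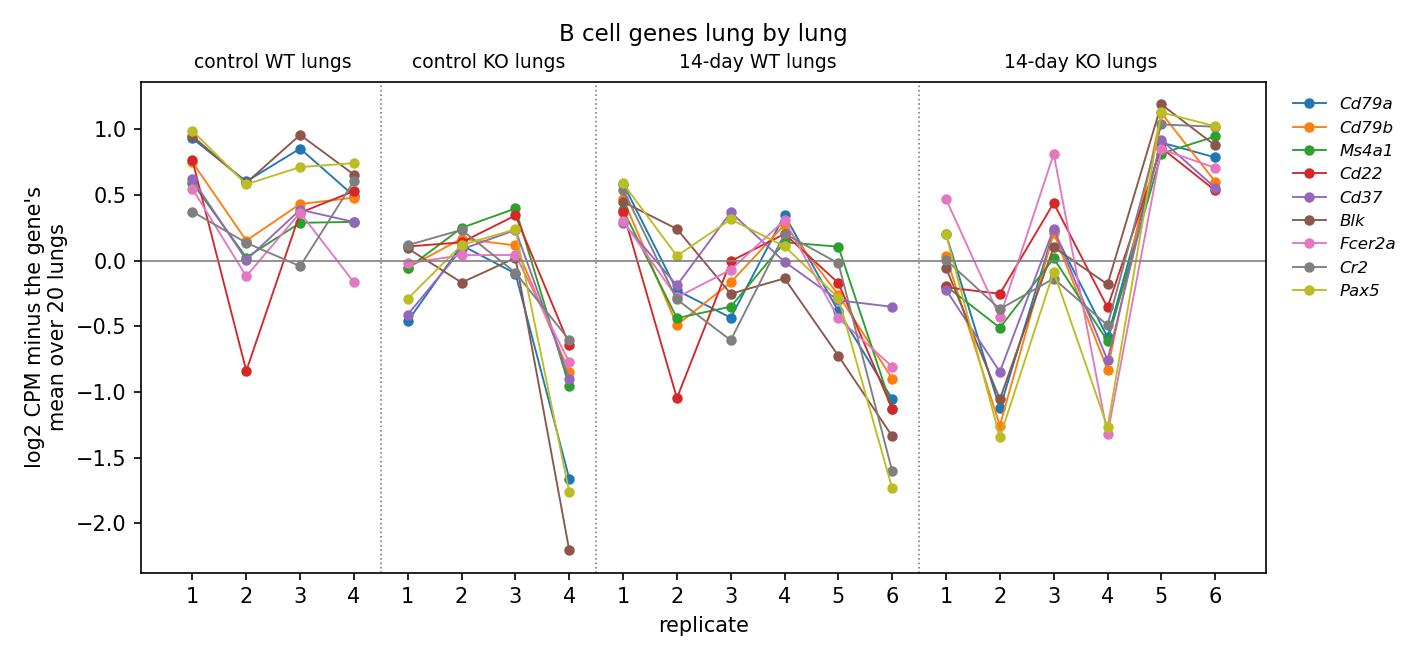
Each gene's log2 CPM in each lung minus that gene's mean over 20 lungs, with 1 line per gene and replicates of a group joined. The 9 lines fall together in control KO replicate 4, 14-day WT replicate 6 and 14-day KO replicates 2 and 4, and rise together in 14-day KO replicates 5 and 6.

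Among the 10 genes most like the mean of the 9 over the 20 lungs, by Pearson's r of log2 CPM, were *Bank1* (0.95), a scaffold of B cell signaling, *H2-Ob* (0.93), a modulator of class II antigen loading, *Ighm* (0.93) and *Ighd* (0.92), the constant regions of IgM and IgD, *Fcrl1* (0.91), *Iglc2* (0.91), *Pou2af1* (0.90), a coactivator of octamer factors, *F730311O21Rik* (0.90) and *Ets1* (0.89). *Iglc2* belongs to a family of near-identical genes whose reads may be divided among its copies. With group means removed, 9 of the 10 were again among the top 10, with *Igkc* in place of *Ets1*, and on log2(FPKM + 1) 7 of 10 were.

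FPKM, fragments scaled for transcript length as well as library size, allow levels of different genes to be compared. By mean FPKM over the 20 lungs the order was *Cd79b* (12.4 ± 5.00, SD, n = 20), *Cd37* (10.8 ± 3.96), *Cd22* (8.91 ± 4.33), *Cd79a* (8.0 ± 3.55), *Ms4a1* (5.18 ± 1.86), *Cr2* (3.88 ± 1.94), *Pax5* (3.01 ± 1.86), *Fcer2a* (2.39 ± 0.881) and *Blk* (1.77 ± 0.860). Neighbours in this order differed by less than the SD over lungs, except that the mean of *Ms4a1* was lower than that of *Cd79a* by more than the SD of *Ms4a1*. In controls, *Cd79a* had 11.9 ± 1.72 FPKM (SD, n = 4) in WT and 5.52 ± 2.44 in KO, *Blk* 2.67 ± 0.374 and 1.23 ± 0.611, and *Pax5* 4.71 ± 2.7 and 1.70 ± 0.899. FPKM and CPM were closely correlated for *Cd79a* (Pearson's r = 1.00 over 20 lungs, as for *Blk* and *Fcer2a*), but less so for *Cd22* (0.78) and *Pax5* (0.72). The ratio of FPKM to CPM, which would be constant for a gene of fixed length apart from library scaling, varied 3.79-fold between lungs for *Pax5*, 2.90-fold for *Cd22* and 2.83-fold for *Cr2*, against 1.05-fold for *Cd79a*. In control WT replicate 3 *Pax5* had 8.46 FPKM at 17.9 CPM, and in replicate 2 it had 2.04 FPKM at 16.4 CPM. FPKM of these 3 genes therefore carries a spread that their counts do not, and whether isoforms differed was not tested. The group with the highest mean was control WT for 7 of 9 genes on both scales, but not for the same genes. *Cr2* was among the 7 on FPKM only and *Cd22* on CPM only. The mean FPKM of *Cd22* was 10.1 in control KO and 9.38 in control WT lungs, the opposite order to its CPM.

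Other genes of the B cell lineage were described from 3 lists. Of 22 genes of receptor signaling and coreceptors, 1 was called by edgeR in any lung comparison. *Cd180*, a Toll-like receptor homologue of B cells, was higher in 14-day than in control KO lungs by 0.78 (SE 0.23, adjusted p = 0.247 in edgeR), with 5.63 to 8.98 CPM at 14 days and 1.90 to 7.40 CPM in controls. Its correlation with the mean of the 9 genes over the 20 lungs was 0.29, and the tumors had 2.82 to 7.99 FPKM of it, against 1.74 to 6.13 in lungs. DESeq2 gave it no adjusted p there, and without its filter on low means called it (0.126). In WT lungs the *Cd180* difference was 0.06, and the interaction was 0.72 (adjusted p = 0.532). *Prkcb*, a kinase of receptor signaling, was called by DESeq2 but not by edgeR, lower in control KO than in control WT lungs (log2 change -0.59, adjusted p = 0.249). The median of the 22 genes was -0.15 in the WT tumor comparison, with 18 lower, and 0.24 in KO, with 18 higher. The most abundant of the 22 were *Cd81*, *Lyn*, *Inpp5d* and *Syk*, which many other cells express.

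Of 14 B cell transcription factors, 1 was called by edgeR in any comparison. *Spib*, an Ets factor of B cells and plasmacytoid dendritic cells, was lower in 14-day than in control WT lungs (log2 change -0.91, SE 0.27, adjusted p = 0.202 in edgeR), with 10.8 to 13.3 CPM in controls and 3.46 to 8.88 CPM at 14 days, so the groups did not overlap. DESeq2 gave no adjusted p for it, and without its filter on low means called it (0.112). In KO the *Spib* difference was 0.09, and the interaction was 1.00 (adjusted p = 0.493). Its correlation with the mean of the 9 genes over the 20 lungs was 0.87. *Siglech*, a marker of plasmacytoid dendritic cells, was also called lower in the WT comparison, by a log2 change of -0.97 (adjusted p = 0.242 in edgeR, and none in DESeq2 unless run without that filter, 0.166). Of the 8 dendritic cell genes, 4 were higher and 4 lower in that comparison, with a median of 0.03. DESeq2 but not edgeR called *Ikzf3*, an Ikaros family factor, lower in control KO than in control WT lungs (-0.63, adjusted p = 0.237) and *Irf8*, a factor that B cells share with myeloid cells, in the interaction (0.59, adjusted p = 0.183), where DESeq2 called 195 of all genes and edgeR 8. The median of the 14 was -0.23 in WT, with 12 lower, and 0.11 in KO, with 12 higher. At an unadjusted p under 0.05 edgeR had 6 in WT and 2 in KO, against 11.8% and 8.64% of all genes. In control KO against WT lungs 13 were lower (median -0.39), with 6 at an unadjusted p under 0.05 in edgeR, against 11.6% of all genes.

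Of 13 tested genes of B cell homing and survival, *Tnfrsf13c*, which encodes the receptor for the B cell survival factor BAFF, was the one called. It was lower in 14-day than in control WT lungs, with a log2 change of -1.28 (SE 0.32, adjusted p = 0.143 in edgeR) and values of 2.26 to 2.89 CPM in controls and 0.705 to 1.77 CPM at 14 days, which did not overlap. These values rest on few counts, 12 to 24 per lung in controls and 4 to 9 at 14 days. The tumors had 0.74 to 3.23 FPKM of *Tnfrsf13c*, against 0.32 to 1.68 in lungs. Its correlation with the mean of the 9 genes over the 20 lungs was 0.62. Averaged over genotypes the change was -0.68 (SE 0.24, adjusted p = 0.232 in edgeR), and DESeq2 gave no adjusted p in either comparison. Without its filter on low means DESeq2 called *Tnfrsf13c* in WT (adjusted p = 0.115) and not averaged over genotypes (0.311). The interaction was 1.21 (adjusted p = 0.497). The list's median was -0.14 in WT, with 10 lower, and 0.16 in KO, with 12 higher. The interaction was positive for 14 of 14 transcription factors, 13 of 13 homing and survival genes and 19 of 22 signaling genes, with 0 called by edgeR. In the same order 3, 2 and 6 were at an unadjusted p under 0.05 in edgeR, against 8.53% of all genes. The interaction was also positive for 14 of 14 T cell genes (median 0.51, 3 at an unadjusted p under 0.05 in edgeR), 8 of 8 red cell and platelet genes (0.46), 6 of 8 NK cell genes (0.30) and 5 of 6 pan-leukocyte genes (0.33).

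Plasma cell and immunoglobulin genes had 0 of 11 called by edgeR in every comparison. At an unadjusted p under 0.05 edgeR had 1 to 3 of the 11, against 8.34% to 12% of all genes. DESeq2 called *Jchain*, the joining chain of secreted antibody, higher in control KO than in control WT lungs (0.60, adjusted p = 0.190). Their median was -0.19 in WT and 0.11 in KO. *Igkc*, the most abundant at 137.6 FPKM, differed by -0.09 and 0.11, and *Ighm* by -0.41 and 0.46, with adjusted p from 0.561 to 0.924 in edgeR. Of 8 genes of developing B cells 2 could be tested, *Vpreb3* and *Il7r*, and 0 were called in any comparison, with 0 at an unadjusted p under 0.05.

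Markers of other leukocytes moved with the B cell genes in part. The median correlation with the mean of the 9 genes over the 20 lungs was 0.58 for 14 T cell genes, 0.53 for 8 NK cell genes, 0.62 for 6 pan-leukocyte genes, 0.53 for 2 thymocyte genes and 0.41 for 8 red cell and platelet genes, against 0.09 for 9 neutrophil, 0.28 for 10 alveolar macrophage and 0.09 for 8 dendritic cell genes, 0.14 for 7 epithelial and 5 endothelial genes, 0.09 for 5 heart muscle genes, -0.21 for 4 fat genes and -0.07 for 3 lymph node stroma genes. Of 14 T cell genes, 14 were lower in the WT tumor comparison (median -0.32), 12 higher in KO (0.23) and 14 lower in control KO than in control WT lungs (-0.49), with 11 higher in KO than in WT lungs at 14 days (0.11) and 13 lower in KO averaged over tumor states (-0.18). In the first 3 of these comparisons 0 were called. There 2, 3 and 3 were at an unadjusted p under 0.05 in edgeR, against 11.8%, 8.64% and 11.6% of all genes. Their summed level was 104.7 to 145.1 CPM in control WT, 78.2 to 123.0 in control KO, 81.3 to 149.8 in 14-day WT and 74.1 to 156.9 in 14-day KO lungs. NK cell genes were lower in control KO than in control WT lungs for 8 of 8, and *Prf1*, the gene of perforin, was called (-1.01, adjusted p = 0.233 in edgeR). At 14 days NK cell genes were also lower in KO than in WT lungs for 8 of 8 (median -0.28), where the 9 B cell genes were higher, and in 14-day against control KO lungs they were split, 4 higher and 4 lower (-0.02). The sums of all 6 pan-leukocyte genes overlapped between the groups, with 445.1 to 579.5 CPM in control WT and 331.0 to 519.3 CPM in control KO lungs. Red cell and platelet genes were higher for 8 of 8 in 14-day against control KO lungs (median 0.45). Of these, 3 were at an unadjusted p under 0.05 in edgeR, against 8.64% of all genes. Red cell and platelet genes were higher for 6 of 8 in KO against WT lungs at 14 days (0.38). They were lower for 6 of 8 in control KO against WT lungs (-0.15) and split in the WT tumor comparison, 4 higher and 4 lower. Whether a shared change in lymphocytes or in blood content underlies the values of the B cell genes was not tested.

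Neutrophil genes differed in another way. Of 9 tested, 4 were called by edgeR as higher in 14-day WT lungs (*S100a8*, *S100a9*, *Cxcr2* and *Mmp8*) and 2 in 14-day KO lungs (*Csf3r* and *Cxcr2*), by 1.02 to 2.05 on the log2 scale, and *Il1r2*, *Mmp9* and *Retnlg* were called averaged over genotypes. Alveolar macrophage genes had *Marco* lower at 14 days in WT (-1.42) and higher in 14-day KO than WT lungs (0.86), and *Chil3* higher in control KO than WT lungs (0.89). *Itga2b* was called higher in 14-day KO lungs (0.82) and *Ppbp* averaged over genotypes (0.71), and *Myh6*, a heart muscle gene, was lower in 14-day KO than WT lungs (-0.66). DESeq2 also called *Csf3r* in WT (1.15), *S100a8* (1.68), *S100a9* (1.68) and *Ppbp* (0.91) in KO, and the pan-leukocyte gene *Laptm5* in the interaction (0.43). None of the other genes of these lists, nor of the epithelial, endothelial, fat, thymocyte and lymph node stroma lists, was called by edgeR or DESeq2 in any comparison.

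In tumors most of the B cell genes had few counts. In 11 of the 12 tumors *Cd79a* had 0 to 6 counts, *Cd79b* 0 to 9, *Ms4a1* 3 to 16, *Blk* 0 to 3, *Fcer2a* 0 to 7, *Cr2* 2 to 12, *Pax5* 0 to 6, *Cd22* 4 to 59 and *Cd37* 12 to 58. A limit of 3 counts is 0.460 to 0.675 CPM in these libraries, which covers counting error only. For 6 of the 9 genes every lung had a higher FPKM than each of these 11 tumors. The exceptions were *Cd22*, with 0.27 to 5.08 FPKM in the 11 tumors, *Cd37*, with 2.28 to 9.24 FPKM, and *Cr2*, whose lowest lung had 0.56 FPKM against 0.74 in the highest of the 11 tumors, although that lung had 17 counts of *Cr2* and that tumor 12. FPKM of *Cd22* and *Cr2* carries the spread described above. *Cd37* is also expressed by other leukocytes, and the 6 pan-leukocyte genes summed to 97.4 to 329.7 FPKM in these tumors.

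One tumor, replicate 2 of the WT hosts, singled out after its values were seen, stood apart for 8 of the 9 genes. It had 36 counts of *Cd79a* (5.76 FPKM), 45 of *Cd79b* (8.94 FPKM), 70 of *Ms4a1* (5.03 FPKM), 55 of *Pax5* (2.63 FPKM) and 88 of *Cr2* (7.22 FPKM), and only *Cd37*, at 8.36 FPKM, was within the range of the other 11. The 9 genes summed to 48.4 FPKM there and to 4.26 to 13.0 FPKM in the others. The list of follicular dendritic cells and lymph node stroma, which includes *Cr2*, summed to 147.4 FPKM there. It summed to 2.19 to 9.68 FPKM in the others. Most of the 147.4 FPKM was *Glycam1*, at 122.8 FPKM against at most 0.73. *Cxcl13* had 6.57 FPKM, against at most 4.22, while *Madcam1* was at 0. *Ighd* had 8.02 FPKM there, against at most 0.72 in the other tumors. The 14 T cell genes summed to 92.4 FPKM there and to 21.6 to 85.9 FPKM in the other tumors. Among them *Cd3e* (2.28 FPKM), *Cd4* (5.82) and *Cd8a* (2.58) lay within the range of the other 11. *Glycam1* and *Cxcl13* were above the other 11 tumors together with 8 of the 9 B cell genes. The part of lymph node tissue in the values of this library was not tested.

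**Figure D4:**
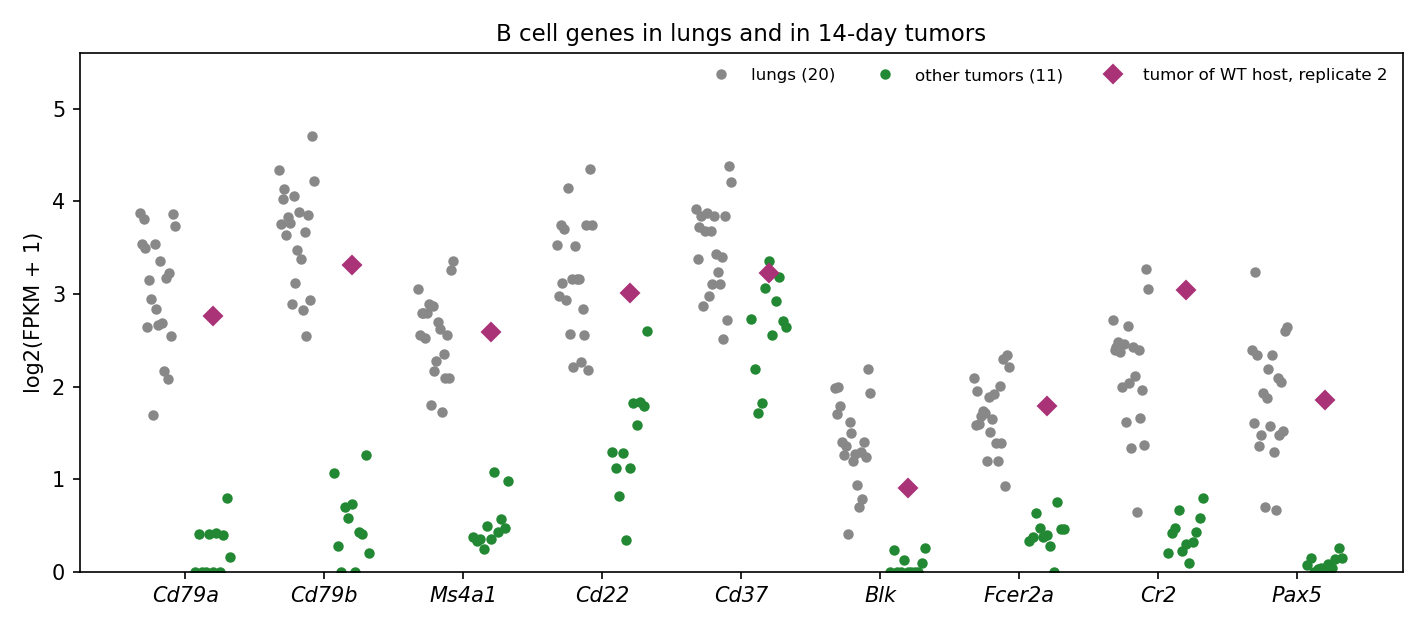
log2(FPKM + 1) of the 9 genes in 20 lungs (grey), 11 tumors (green) and replicate 2 of the tumors of WT hosts (diamond). Replicate 2 lies above the 11 other tumors for 8 of 9 genes, and *Cd37* is the gene with the closest levels in lungs and tumors.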

How the data were processed

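Stranded mRNA libraries of 20 lungs and 12 tumors were sequenced as read pairs. Samples of a group came from separate mice, and whether a lung and a tumor shared a mouse is not given in the sources used here. The authors' reads were aligned to GRCm38 (mm10) by STAR, and RSEM estimated gene abundance. The authors deposited expected counts per gene, rounded to whole numbers and not normalized, and FPKM values per gene symbol, scaled by RSEM for transcript length and library size. The gene annotation is not given in the sources used here. Expected counts divide reads shared by near-identical genes. A symbol shared by several genes (52 in the count table) was left out of the lists, and GENCODE M21 gave positions and GC content.

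Counts were scaled by TMM and tested with edgeR 4.0.16 (R 4.3.3; quasi-likelihood test, filterByExpr) in 1 fit of the 20 lungs with 1 mean per group and no replicate block, and p-values were adjusted by Benjamini-Hochberg over all 16029 genes. A gene was called if it changed at least 1.5-fold with an FDR under 0.25, limits that the study used for lungs, and the interaction at an FDR of 0.25 alone. The SE is the log2 fold change over the square root of F, and intervals are at 95%. CPM are TMM-normalized over the lungs, and correlations used log2 CPM with a prior count of 2. Pairs of lungs or tumors of a group differed by more than sampling noise, with a chi-squared of 2.43 to 15.0 per degree of freedom. Replicate numbers did not pair the lungs: deviations of same-numbered lungs correlated at -0.212 to 0.232, above 0.1 in 2 of 26 pairs.

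Alternatives were DESeq2 1.42.0 (also without its independent filtering of low means, chosen after seeing the data), RLE size factors, other count filters, a replicate block, offsets for GC content, other limits, only the compared groups and each lung left out. Tables and figures used Python 3.11.15 with pandas 2.3.3, scipy 1.17.1 and matplotlib 3.10.9. The 9 genes and all lists (B cell receptor signaling, transcription factors, homing and survival, plasma cells, developing B cells, other leukocytes and lung tissue) were chosen with earlier results of these data known. Named are the 9 genes, every list gene past the limits and otherwise at most the 4 most abundant of a list, the 10 genes most like the 9 (1 is not reported here), and *Clic4*. Dixon's ratio was used to find single samples far from their group.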

Additional observations from a re-analysis of the deposited data

Results flagged for a closer look

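Of 54 groups of values of the 9 genes (36 in lungs, in CPM, and the others in tumors, in FPKM), 11 held a sample whose gap to its nearest neighbour was large for the range of its group by Dixon's 95% criterion. For normally distributed values chance alone gives about 1 in 20 groups. Many tumor values are 0 or rest on a few counts, so that rate need not hold there. The 9 genes also move together, so these are not 11 separate events. Of the 11, 8 are in 1 library, replicate 2 of the tumors of WT hosts. It had 5.76 FPKM of *Cd79a* (others at most 0.33), 8.94 of *Cd79b* (at most 1.09), 5.03 of *Ms4a1* (at most 0.41), 7.08 of *Cd22* (at most 1.46), 0.88 of *Blk* (at most 0.18), 2.46 of *Fcer2a* (at most 0.55), 7.22 of *Cr2* (at most 0.59) and 2.63 of *Pax5* (at most 0.11), and the others are the 5 remaining tumors of WT hosts.

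In tumors of KO hosts, replicate 6 had 5.08 FPKM of *Cd22*, against 1.17 to 2.56 in the other 5, but by counts it was not the highest, with 34 against 59 in replicate 5, and FPKM of *Cd22* varied relative to CPM. It also had 0.20 FPKM of *Blk*, against 0 to 0.07, which is 3 counts against 0 or 1 and so at the limit of counting. In lungs 1 value was far from its group: control KO replicate 4 had 2.65 CPM of *Fcer2a*, against 4.48 to 4.68 in the other 3. The same lung was the lowest of its group for all 9 genes.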

How the results depend on the processing

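In all 7 comparisons 0 of the 9 genes were called under RLE size factors, no count filter, at least 10 counts in every lung (which left out *Blk*), the replicate block, GC offsets with and without the block, and an FDR of 0.05 or, outside the interaction, 0.25 with no fold limit. DESeq2 called 0 of the genes to which it gave an adjusted p in 5 comparisons, and gave none for KO against WT lungs at 14 days and for the interaction. DESeq2 without independent filtering, chosen after seeing the data, gave all 9 an adjusted p in every comparison and called 1, *Cd79a*, in KO against WT control lungs and 0 in the others. With only the compared groups in the fit, 2 genes were called in 14-day against control WT lungs and 3 in KO against WT control lungs. With each lung left out in turn, 0 to 2 genes were called in the WT tumor comparison (2 without 14-day KO replicate 2, with 134 genes called in all, and 1 without control KO replicate 4, with 99, against 92 with all lungs), and 0 to 1 in control KO against WT (1 without 14-day KO replicate 2 or 14-day WT replicate 5, with 64 and 92 genes called in all, against 37). The lungs whose omission added calls belong to neither group of the comparison concerned.

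All 9 genes kept their sign over the lungs left out in the WT tumor comparison (median -0.67 to -0.38), in control KO against WT (-0.67 to -0.35) and in the interaction (0.63 to 1.03). The averaged medians ran from -0.23 to -0.05 for the tumor comparison and from -0.28 to -0.05 for KO against WT. Signs near 0 changed. Over the lungs left out, the log2 change of *Ms4a1* in KO lungs ran from -0.000591 to 0.386. For 14-day against control lungs averaged over genotypes, that of *Cd37* ran from -0.132 to 0.0653 and that of *Cr2* from -0.143 to 0.0467. For KO against WT at 14 days, *Cd37* ran from -0.0881 to 0.262 and *Pax5* from -0.00742 to 0.426. Averaged over tumor states, *Ms4a1* ran from -0.0994 to 0.118, *Cd22* from -0.0498 to 0.16 and *Cr2* from -0.0435 to 0.157. There *Ms4a1* (0.0116) also turned to -0.015 with the replicate block, -0.0293 with GC offsets and -0.0529 with both, and the cause was not tested. The block changed no call of the 9 genes, but the median in KO lungs (0.37) was 0.18 with it and 0.19 with GC offsets and the block, and that averaged over genotypes (-0.12) was -0.21 and -0.22. Replicate numbers share only a label, and no other pairing was used.

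The lowest depth was that of *Blk*, with 4 to 56 counts per lung, and *Fcer2a*, with 10 to 55. Whether depth limited these comparisons was not tested.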
